A study of Mus musculus with 41 samples.

Results

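Napsa, Ubap1l, Lypd2, 1190002F15Rik and 0610040F04Rik are 5 of the 24028 gene symbols measured by RNA-seq in mouse androgenetic haploid embryonic stem cells (AG-haESCs). They were selected on the readout itself, namely higher FPKM (fragments scaled to transcript length and library depth) in lines derived in TSa2i/L than in lines kept in 2i/L, so their difference between these media is given as a description without a test. The questions asked of the data were whether the genes also rose when 2i/L lines were switched to the serum-free medium, and whether they varied with passage.

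AG-haESCs carry a single, paternal genome, and the study compared culture media that keep such cells for sperm-like use. The 2i/L medium held serum, LIF, the MEK inhibitor PD0325901 and the GSK3 inhibitor CHIR99021. SF/a2i/L was a serum-free medium with B27, N2, LIF, CHIR99021 and the Src inhibitor CGP77675 in place of PD0325901. TSa2i/L lines were derived with CGP77675, CHIR99021 and serum and then moved to SF/a2i/L. Serum, basal medium and inhibitor therefore differed together, and their parts cannot be told apart. Wild-type TSa2i/L and 2i/L cells were also separately derived lines, so medium, line and derivation cannot be told apart between them.

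The 13 RNA-seq libraries were all labelled C57BL/6 haploid mouse ESCs. Wild-type cells in 2i/L were line 2i-14 at passages 18, 39 and 50. Line 2i-O48, with deletions of the H19-DMR and IG-DMR, and line 2i-O48-TKO, which also lacked the H19 gene, had 1 library each in 2i/L. Each of these 3 lines had 1 library after 5 passages in SF/a2i/L, called switched here. Wild-type TSa2i/L cells were line TSa2i-14 at passages 22, 47 and 54 and line TSa2i-C57 at passages 9 and 58. The paper lists TSa2i-14 as C57BL/6 with actin-EGFP and TSa2i-C57 as C57BL/6. Libraries of a line are passages of that line and not separate derivations, so p-values measure only the spread between these libraries. The cells grew on ICR fibroblast feeders and were enriched for haploid cells by sorting.

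The depth implied by the FPKM steps was 12700000 to 19900000 fragments per library, and 9258 to 10320 symbols reached 1 FPKM. All 10 ESC markers checked, Pou5f1 and Nanog among them, were above 1 FPKM in every library. Switched 2i-14 stood apart, with 67.2% of its summed FPKM at microRNA loci (23.2% in 2i-14 at passage 18, the next highest), and the switch of the 5 genes is therefore tested in the DMR-deleted lines alone. Fibroblast and Y-linked genes were higher in a few libraries, whose values are given beside the results they touch.

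Napsa encodes napsin A, a pepsin-family aspartic protease of the endolysosomal pathway known from lung type II cells and kidney tubule. Lypd2 belongs to the Ly6/uPAR family of small, disulfide-rich proteins, most of which are anchored to the cell surface by a lipid. Ubap1l is a relative of UBAP1, a subunit of the ESCRT-I complex that sorts ubiquitinated membrane proteins. 1190002F15Rik, now named Lockd in RefSeq, is a long noncoding RNA transcribed downstream of the cell cycle inhibitor gene Cdkn1b. 0610040F04Rik is a noncoding RNA gene beside Bhlhe40, which encodes a basic helix-loop-helix repressor.

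In mm9, the build of the files, the GENCODE vM1 annotation placed Napsa on the plus strand at chr7:51827802-51842232 and Ubap1l, there named Gm514, on the plus strand at chr9:65208867-65228184. Lypd2 lay on the minus strand at chr15:74549460-74564743, and 0610040F04Rik, a lincRNA, on the minus strand at chr6:108527033-108610928. 1190002F15Rik was absent from that annotation, and RefSeq places it on chromosome 6 as an lncRNA. The libraries did not mark strand, so reads from overlapping genes cannot be told apart. Napsa overlaps the antisense lincRNA Gm15396 over 6895 bp, Lypd2 spans Slurp1 and 4930572J05Rik, and 0610040F04Rik overlaps Gm17055 and the first 306 bp of Bhlhe40.

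RefSeq promoter windows of 300 bases (250 before and 50 after the transcription start, build GRCm38.p6) were matched for 3 of the 5 genes. The upstream 250 bases of the 2 genes with the most alike levels over the libraries are shown with CpG dinucleotides in capitals, since DNA methylation was the other readout of the study. The windows lie at chr9:65360779-65361028 and chr6:134928842-134929091, both on the plus strand and read 5′ to 3′.
Ubap1l: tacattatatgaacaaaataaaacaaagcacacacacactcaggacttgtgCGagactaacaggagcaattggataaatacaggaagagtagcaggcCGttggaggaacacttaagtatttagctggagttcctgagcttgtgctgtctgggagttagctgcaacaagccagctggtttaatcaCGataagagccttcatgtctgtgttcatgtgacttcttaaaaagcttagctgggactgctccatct
1190002F15Rik (Lockd): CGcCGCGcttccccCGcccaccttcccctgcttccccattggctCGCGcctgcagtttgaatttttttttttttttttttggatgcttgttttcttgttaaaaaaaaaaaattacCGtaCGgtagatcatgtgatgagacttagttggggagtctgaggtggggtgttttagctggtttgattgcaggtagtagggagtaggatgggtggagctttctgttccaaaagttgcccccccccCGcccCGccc

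The Ubap1l stretch held 3 CpGs and the 1190002F15Rik stretch 10. Over the full 300 bases the counts were 6 and 13, against a median of 7 over 32851 windows, and GC content was 44.3% and 50.7% against a median of 52.7%. The 2 genes thus had different base composition at their starts. Methylation of these windows was not analysed here.

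Each window was searched on both strands for the TATA box (TATAAA), the E-box (CACGTG), the cAMP response element (TGACGTCA), AP-1 (TGANTCA), STAT (TTCNNNGAA), ETS (CCGGAAG), orphan nuclear receptors such as Esrrb (AAGGTCA) and TCF/LEF (CTTTGAT). These motifs were held by 13.6%, 7.15%, 1.79%, 7.81%, 8.30%, 8.86%, 4.72% and 3.73% of all windows, respectively. The only match was AP-1, in 1 of the 2 windows of 0610040F04Rik, starting 113 bases before the transcription start. It lies at chr6:108623264-108623290 on the minus strand and is shown with the match in capitals.
0610040F04Rik: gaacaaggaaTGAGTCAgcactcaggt

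Napsa was close to undetected in 2i/L. Its FPKM was 0.730, 0 and 0.0393 in 2i-14 at passages 18, 39 and 50, 0.189 for 2i-O48 and 0.12 for 2i-O48-TKO, which corresponds to at most about 15 fragments. After the switch it was 1.54 in 2i-14, 3.24 for 2i-O48 and 1.37 for 2i-O48-TKO. In TSa2i/L it was 7.78, 45.3 and 18.4 in TSa2i-14 at passages 22, 47 and 54, and 8.92 and 17.7 in TSa2i-C57 at passages 9 and 58. The order was 2i/L, switched, TSa2i/L with no overlap between any of these groups. The 2i-14 and TSa2i/L values chose the gene, and the share of all genes ordered this way was not computed. The log2 change of Napsa between TSa2i/L and 2i-14 was 3.81, rank 1 of 10387 genes tested. In bulk RNA, fewer expressing cells and less RNA per cell cannot be told apart.

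Lypd2 followed a like order, but with overlap between the groups. Its FPKM was 1.02, 0 and 0 in 2i-14 at passages 18, 39 and 50, 0 for 2i-O48 and 0.896 for 2i-O48-TKO. The switched libraries gave 0.221 for 2i-14, 4.74 for 2i-O48 and 2.10 for 2i-O48-TKO. TSa2i-14 gave 3.75, 17.0 and 14.2 at passages 22, 47 and 54, and TSa2i-C57 gave 11.7 and 13.9 at passages 9 and 58. The TSa2i/L libraries were all above 2i/L, whereas the switched libraries overlapped both, and switched 2i-14 rested on about 2.13 fragments. The log2 change between TSa2i/L and 2i-14 was 3.24, rank 5.

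Ubap1l was low but clearly detected in 2i/L and had the least scatter in TSa2i/L. It measured 4.47, 3.64 and 1.67 FPKM in 2i-14 at passages 18, 39 and 50, 5.20 for 2i-O48 and 8.42 for 2i-O48-TKO. The switched libraries gave 23.7 for 2i-14, 23.2 for 2i-O48 and 43.6 for 2i-O48-TKO. In TSa2i/L it measured 39.7, 45.8 and 36.9 in TSa2i-14 at passages 22, 47 and 54, and 34.7 and 38.6 in TSa2i-C57 at passages 9 and 58. All 8 libraries in the serum-free medium were above the 5 in 2i/L, and switched 2i-O48-TKO lay inside the TSa2i/L range. Mean FPKM was 12.0 times higher in TSa2i/L (39.1 ± 4.17, SD, n = 5) than in 2i-14 (3.26 ± 1.44, n = 3), with a log2 change of 3.29, rank 4.

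1190002F15Rik had nearly the same shape as Ubap1l. It measured 6.40, 3.10 and 3.81 FPKM in 2i-14 at passages 18, 39 and 50, and 10.4 and 11.4 in 2i-O48 and 2i-O48-TKO. After the switch it was 20.3 in 2i-14, 17.3 for 2i-O48 and 54 for 2i-O48-TKO. The TSa2i-14 libraries gave 33.4, 89.8 and 40.1 at passages 22, 47 and 54, and the TSa2i-C57 libraries 48.2 and 32.7 at passages 9 and 58. The 2i/L libraries were again below all others, and the switched and TSa2i/L ranges overlapped. Mean FPKM was 48.8 ± 23.7 in TSa2i/L (n = 5) and 4.44 ± 1.74 in 2i-14 (n = 3), 11 times higher, with a log2 change of 3.14, rank 7.

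0610040F04Rik differed from the other 4 in that its highest levels were in switched libraries. It measured 5.79, 4.10 and 4.91 FPKM in 2i-14 at passages 18, 39 and 50, 2.98 for 2i-O48 and 8.92 for 2i-O48-TKO. The switched libraries gave 22.4 for 2i-14, 19.7 for 2i-O48 and 28.8 for 2i-O48-TKO. TSa2i-14 gave 8.78, 15.1 and 14.2 at passages 22, 47 and 54, and TSa2i-C57 22.2 and 12.3 at passages 9 and 58. The order was 2i/L, TSa2i/L, switched, but TSa2i-14 at passage 22 lay just under 2i-O48-TKO in 2i/L, and TSa2i-C57 at passage 9 lay inside the switched range. Mean FPKM was 14.5 ± 4.93 in TSa2i/L (n = 5) and 4.93 ± 0.846 in 2i-14 (n = 3), 2.94 times higher, with a log2 change of 1.34, rank 170.

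**Figure D1:**
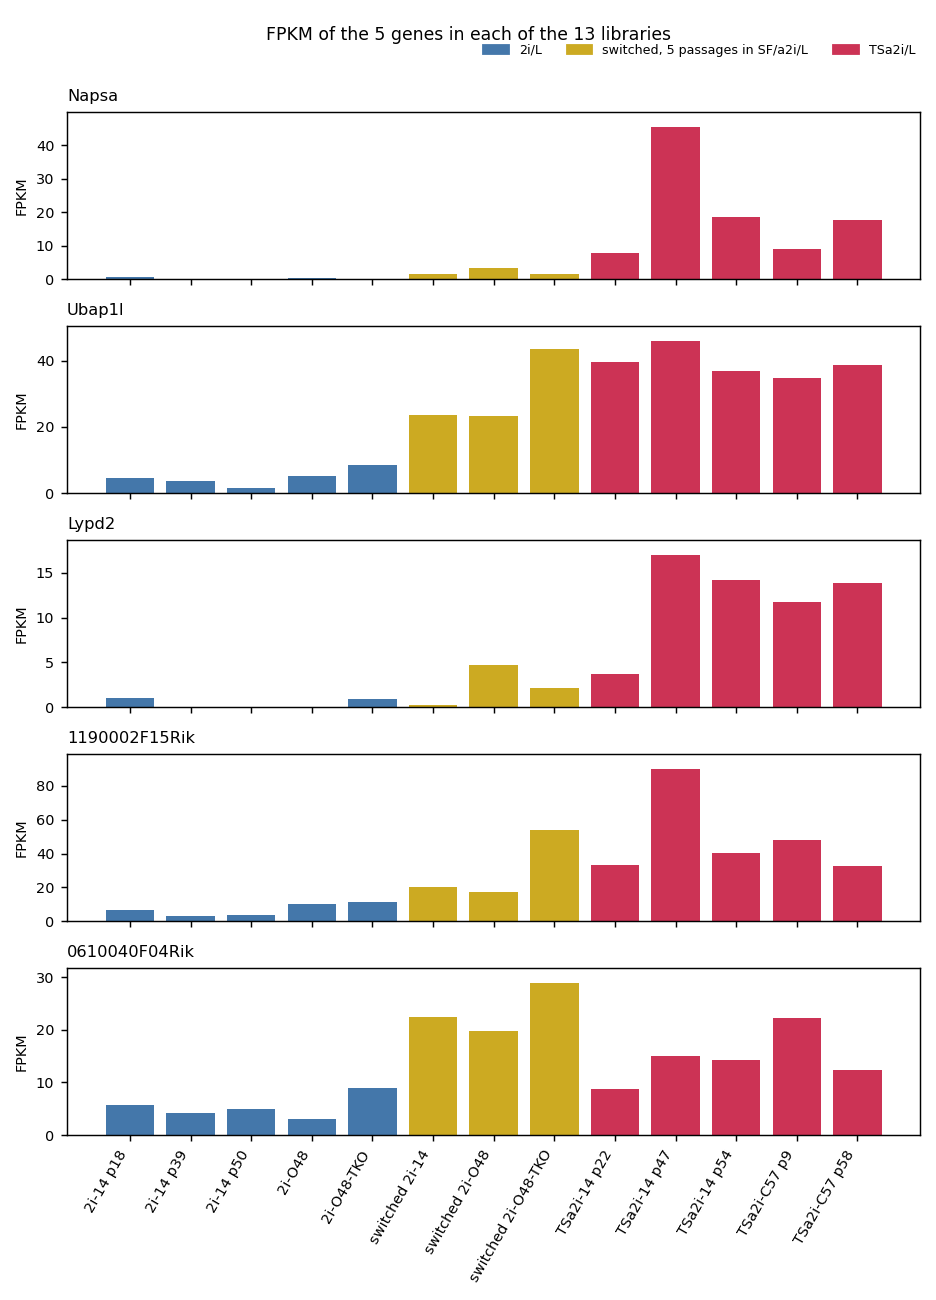
FPKM (linear axis from 0, own scale for each gene) of the 5 genes in every library, 1 bar per library, coloured by medium. Napsa and Lypd2 reached 0.730 and 1.02 at most in 2i/L, Ubap1l and 1190002F15Rik were above their 2i/L range in all switched and TSa2i/L libraries, and 0610040F04Rik was highest, at 28.8, in switched 2i-O48-TKO.

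In the contrast that chose the genes, 5.72% of all genes tested were called higher in TSa2i/L than in 2i-14 (limma, Benjamini-Hochberg adjusted p under 0.05). Nothing is read from the 5 genes being among them, or from ranges of the 5 genes that do not overlap between media or lines. The share of all genes with such ranges was not computed. The 2 DMR-deleted lines in 2i/L took no part in the contrast that chose the genes. Both gave higher Ubap1l and 1190002F15Rik than any 2i-14 library, while their Napsa and Lypd2 values lay within the 2i-14 range and those of 0610040F04Rik on either side of it. Genotype and line cannot be told apart here.

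The switch asks whether a line that already existed in 2i/L gained these transcripts within 5 passages. The control paired with switched 2i-14 was 2i-14 at passage 50, a library of the contrast that chose the genes, so the changes over all 3 pairs are a description without a test (the labels give no passage for the switched cells). Ubap1l was 14.2 times higher after the switch in 2i-14, 4.46 times in 2i-O48 and 5.18 times in 2i-O48-TKO, a mean change of 2.47 on the log2(FPKM + 1) scale (SE 0.29). The value of 14.2 rested on passage 50, the lowest of the 2i-14 controls, and was 6.50 against passage 39 and 5.29 against passage 18. 0610040F04Rik had ratios in the same line order of 4.56, 6.59 and 3.23 and a mean change of 1.98 (SE 0.23). 1190002F15Rik had ratios of 5.33, 1.66 and 4.75 and a mean change of 1.66 (SE 0.33), and its ratio in 2i-14 was 3.17 against passage 18. The mean change of Napsa was 1.40 (SE 0.20), with no ratio given since its 2i/L levels were near the floor of 3 fragments.

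In the fit over the 3 pairs, blocked by line, 2.22% of 9759 genes were called higher and 4.66% lower (limma), and 19.4% had a higher value in all 3 switched libraries than in their own controls. Lypd2 had too low an FPKM to enter this fit. It was higher in 3 of 3 pairs, by 0.29, 2.52 and 0.71 on the log2 scale, but its level in switched 2i-14 was under the floor of 3 fragments. Switched 2i-14 was also below 2i-14 at passage 18 (-0.73). Without any filter on low values no gene of the whole table was called (0 genes, limma, 3206 at an unadjusted p under 0.05).

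The DMR-deleted lines alone took no part in choosing the genes. They do not include the library with 67.2% of its summed FPKM at microRNA loci. In these 2 pairs Ubap1l rose by 2.10 (SE 0.31, adjusted p = 0.000477), 0610040F04Rik by 1.98 (SE 0.33, adjusted p = 0.00135), and 1190002F15Rik by 1.42 (SE 0.35, adjusted p = 0.0179), all by limma with a block on line. In this fit 3.19% of genes were called higher and 7.16% lower. Napsa and Lypd2 entered it only through the switched libraries, where they are high, so their changes of 1.46 (SE 0.27) and 1.61 (SE 0.35) are given without a p. In a fit with no filter, chosen after seeing the data, their adjusted p-values were 0.257 and 0.318 (limma). With 2 pairs the spread is estimated largely from the other genes. 2i-O48-TKO shares the name and the DMR deletions of 2i-O48, so the 2 pairs may not be independent lines. With no filter 0 genes of the whole table were called (limma, 2625 at an unadjusted p under 0.05), and Ubap1l, 0610040F04Rik and 1190002F15Rik had adjusted p-values of 0.257, 0.257 and 0.302 (limma). Without the block on line 1190002F15Rik was not called (adjusted p = 0.123, limma).

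The genes differed in how far the switched lines came towards the TSa2i/L level. Napsa in the switched libraries was 7.77% to 18.3% of the TSa2i/L median, and Lypd2 1.59% to 34.1%. Ubap1l was 60.1% to 113% of that median and 1190002F15Rik 43.1% to 135%. 0610040F04Rik was 138% to 202%, above the TSa2i/L median in every switched library. Napsa and Lypd2, which were near 0 in 2i/L, thus stayed furthest below the TSa2i/L median after 5 passages. Switched and TSa2i/L lines differ in derivation, line and passage, which cannot be told apart, and this difference was not tested.

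**Figure D2:**
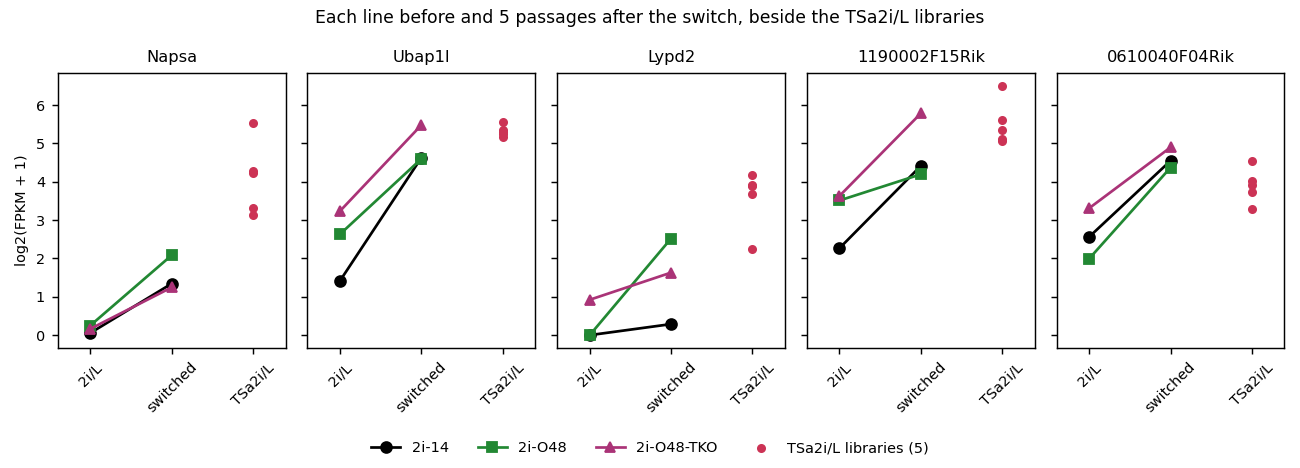
log2(FPKM + 1) of each gene in 2i/L and after the switch, joined for each of the 3 lines (2i-14 from passage 50), with the 5 TSa2i/L libraries as separate points. Every line slopes upward, the least for Lypd2 in 2i-14 (0.29), and the switched points of Napsa stay below all TSa2i/L points.

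Passage was compared within TSa2i/L, with passage 30 dividing early from late, a split that the selection did not use. Napsa was 7.78 and 8.92 FPKM in the 2 early libraries and 17.7, 18.4 and 45.3 in the 3 late ones, and Lypd2 was 3.75 and 11.7 against 13.9, 14.2 and 17.0. For both genes every late library was above every early one, as was the case for 18.5% of all genes. The differences were 1.46 for Napsa (SE 0.40, adjusted p = 0.530, limma) and 1.04 for Lypd2 (SE 0.39, adjusted p = 0.535, limma), and neither passed the test. That of Lypd2 was 0.33 without TSa2i-14 at passage 22 and 1.75 without TSa2i-C57 at passage 9. Fibroblast genes also differed between these libraries. Their mean log2 level over 15 genes was 1.15, 0.832 and 3.04 in TSa2i-14 at passages 22, 47 and 54. In TSa2i-C57 it was 0.769 and 2.14 at passages 9 and 58. TSa2i-14 at passage 47, the highest library for Napsa and Lypd2, was below passage 22 for the fibroblast genes. TSa2i-14 at passage 54 and TSa2i-C57 at passage 58 were above both early libraries for them. The median late-minus-early difference of the fibroblast genes was 1.13 over the 10 tested against 0.09 over all genes. Their part in the differences of Napsa and Lypd2 was not tested. Neither gene climbed steadily in TSa2i-14, where both were lower at passage 54 than at passage 47.

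The other 3 genes overlapped between early and late libraries. Their late-minus-early differences were 0.11 for Ubap1l (SE 0.20), 0.29 for 1190002F15Rik (SE 0.41) and -0.02 for 0610040F04Rik (SE 0.35), with adjusted p-values of 0.875, 0.838 and 0.987 (limma). 0610040F04Rik was higher late than early in TSa2i-14 and lower late than early in TSa2i-C57. The share of genes called in either direction was 0.0% (0 of 10502, limma, 928 at an unadjusted p under 0.05). In 2i-14 the 5 genes were each highest at passage 18, and Napsa and Lypd2 were at or near 0 at passages 39 and 50. Each passage was 1 library, and the share of all genes highest at passage 18 was not computed. That library had 23.2% of its summed FPKM at microRNA loci, against 1.06% and 0.00122% at passages 39 and 50. No effect of passage is read from these values.

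**Figure D3:**
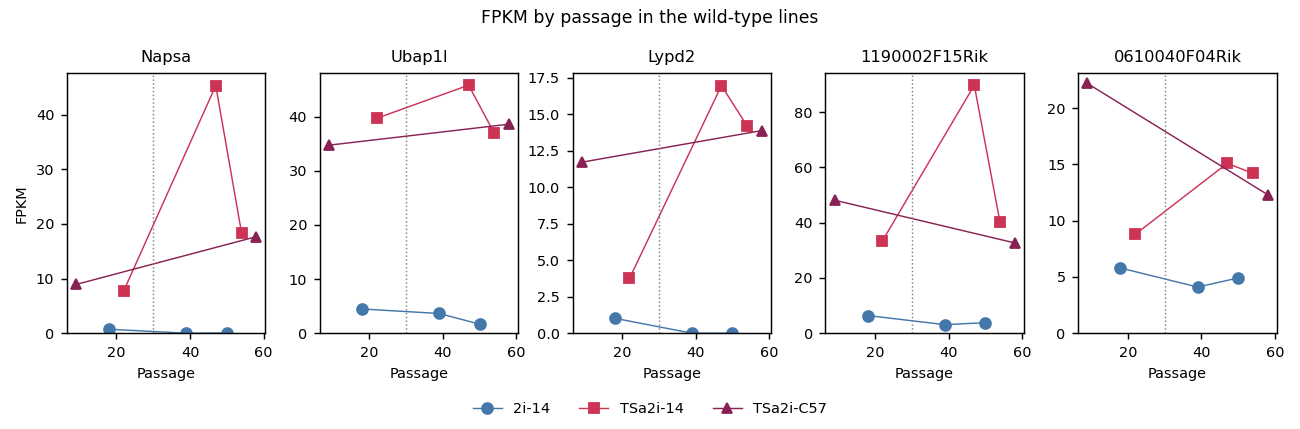
FPKM of each gene against passage in 2i-14, TSa2i-14 and TSa2i-C57, 1 point per library, with the dotted line at passage 30 between early and late. Napsa and Lypd2 are higher in the 3 late TSa2i/L libraries than in the 2 early ones, and TSa2i-14 at passage 47 is the highest point for Napsa, at 45.3, and for 1190002F15Rik, at 89.8.

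No difference between the 2 TSa2i/L lines passed the test for these genes, and their ranges overlapped for each gene. Mean FPKM in TSa2i-14 (n = 3) and TSa2i-C57 (n = 2) was 23.8 ± 19.3 and 13.3 ± 6.18 for Napsa, 40.8 ± 4.55 and 36.7 ± 2.75 for Ubap1l, and 11.6 ± 6.97 and 12.8 ± 1.53 for Lypd2. It was 54.4 ± 30.8 and 40.4 ± 10.9 for 1190002F15Rik, and 12.7 ± 3.42 and 17.2 ± 6.98 for 0610040F04Rik. Each gene had an adjusted p of 0.999, and 0.0% of genes were called (0 of 10502, limma, 366 at an unadjusted p under 0.05).

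Within TSa2i/L the genes varied to different degrees. The highest library was 5.82 times the lowest for Napsa, 4.52 times for Lypd2, 2.75 times for 1190002F15Rik, 2.53 times for 0610040F04Rik and 1.32 times for Ubap1l. TSa2i-14 at passage 47 was the highest TSa2i/L library for 4 of the 5 genes. The exception was 0610040F04Rik, which was highest in TSa2i-C57 at passage 9.

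RNA of other cell types differed between libraries. The mean log2 level of 15 fibroblast genes was 3.04 in TSa2i-14 at passage 54, 2.58 in 2i-14 at passage 39, 2.14 in TSa2i-C57 at passage 58 and 1.15 in TSa2i-14 at passage 22, against 0.557 to 0.922 in the other 9. Y-linked genes, which mark male feeder cells since AG-haESCs carry no Y chromosome, summed in these 4 libraries to 2.56, 4.15, 1.56 and 0.288 FPKM in the same order, 0.124 in switched 2i-14 and 0 in the other 8. The part of feeder RNA in the levels of the 5 genes was not tested.

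In the switch itself the fibroblast mean was 0.557 to 0.629 in the 3 control libraries and 0.801 to 0.922 after. Of 3 fibroblast genes tested, 2 were called higher, where 2.22% of all genes were. Fstl1 rose (1.15, adjusted p = 0.0423, limma) and did so in the DMR-deleted pairs (1.36, adjusted p = 0.0143, limma), where 3.19% of all genes were called higher. S100a4 changed by 2.35 and was also called, but passed the low-value filter through the switched libraries. Fbln1 went the other way (-0.45, adjusted p = 0.359, limma). The part of fibroblast genes in the rise of the 5 genes was not tested. Fibroblast genes gave 0 calls in TSa2i/L against 2i-14 (10 tested, limma).

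Genes of the tissues where Napsa and Lypd2 are best known were near 0. The 8 lung type II genes, the surfactant proteins among them, summed to 0.626 to 1.36 FPKM and the 8 kidney tubule genes to 0.0441 to 0.567, and none reached 1 FPKM in any library. The 10 stratified epithelium genes summed to 0 to 0.568. The 8 blood cell genes summed to 83.3 to 163 in TSa2i/L and 33.0 to 86.2 in 2i-14, and were mostly Cd68, a lysosomal membrane protein of macrophages (log2 change 1.28, adjusted p = 0.0452, limma), and Laptm5 (0.97, adjusted p = 0.0906, limma). The defining gene Ptprc was at most 0.0143 FPKM. Of 10 primitive endoderm genes 2 were tested in this contrast and of 10 trophoblast genes 6, and 0 were called in either list (limma).

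The relatives of Napsa gave few calls, in both directions. Of 8 other pepsin-family protease genes 4 were tested, and in the switch 0 were called higher and 2 lower, where 2.22% and 4.66% of all genes were. They were Pga5, encoding a pepsinogen (-1.20, adjusted p = 0.0346, limma, and -1.01, adjusted p = 0.0435, in the DMR-deleted pairs), and Ren1, encoding renin (-1.22), which passed the low-value filter through the 2i/L libraries. In TSa2i/L against 2i-14, Ctsd, encoding cathepsin D, was higher (0.72, adjusted p = 0.0458, limma) and Pga5 lower (-1.78, adjusted p = 0.00428, limma), with 5.72% of all genes called higher and 1.85% lower. The list's median was -0.85 in the switch against -0.09 over all genes tested, and -0.78 against -0.15 in the DMR-deleted pairs.

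Of 15 other lysosomal protease genes, 3 were called higher and 0 lower in TSa2i/L, of 12 tested, where 5.72% and 1.85% of all genes were. They were Ctsz (1.34, adjusted p = 0.00105, limma), Ctsc (0.98, adjusted p = 0.00675, limma) and Ctsa (0.55, adjusted p = 0.0489, limma), encoding cathepsins Z, C and A. In the switch Ctsz alone rose among 11 tested (0.93, adjusted p = 0.0498, limma, and 1.13, adjusted p = 0.0119, in the DMR-deleted pairs). The list's medians were 0.44 in TSa2i/L and -0.28 in the switch, against 0.07 and -0.09 over all genes.

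The ESCRT-I genes gave no call in either contrast, with 7 tested in TSa2i/L and 5 in the switch of 9 listed (0 called, limma). Ubap1 itself changed by 0.02 in TSa2i/L (adjusted p = 0.973, limma) and -0.26 in the switch (adjusted p = 0.518, limma). Vps28, an ESCRT-I subunit, was at 0.69 in the switch (adjusted p = 0.0505, limma) and rose in the DMR-deleted pairs (0.77, adjusted p = 0.0452, limma). The list's medians were 0.04 in TSa2i/L and 0.05 in the switch.

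Of 33 Ly6/uPAR family genes other than Lypd2, 32 were in the files, and 13 and 11 were tested in TSa2i/L and in the switch. Ly6g5c was the 1 gene called in each, where 5.72% and 2.22% of all genes were called higher. Its changes were 1.24 in TSa2i/L and 2.64 in the switch, and it passed the low-value filter mainly through the libraries where it was higher. In the DMR-deleted pairs Ly6a (-1.96, adjusted p = 0.00541, limma) and Tex101 (-2.05, adjusted p = 0.00311, limma) fell, where 7.16% of all genes were called lower. Ly6g5c was called higher in these pairs too (2.61), where 3.19% of all genes were. The list's median there was 0.46 against -0.15 over all genes tested. The list's medians were 0.32 in TSa2i/L and 0.13 in the switch.

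The genes next to the 5 are described by their levels, and whether they vary together with the 5 was not tested. Cdkn1b, upstream of 1190002F15Rik, was 0.690 to 1.33 FPKM in 2i-14 and 1.54 and 1.58 in the DMR-deleted lines in 2i/L. It was 0.822 to 1.17 in switched and 1.32 to 2.81 in TSa2i/L libraries. The TSa2i/L libraries ranked in the same order for Cdkn1b as for 1190002F15Rik. Cdkn1b changed by -0.28 in the switch (adjusted p = 0.367, limma), opposite in sign to 1190002F15Rik, and by 0.65 in TSa2i/L (adjusted p = 0.0935, limma). Bhlhe40, which overlaps 0610040F04Rik head to head, was 2.05 to 4.32 in 2i-14, 0.961 and 15.9 in the DMR-deleted lines in 2i/L, 0.822 to 3.78 in switched and 3.90 to 8.32 in TSa2i/L libraries. Its change in the switch was -0.74 (adjusted p = 0.247, limma), opposite in sign to that of 0610040F04Rik, and 0.82 in TSa2i/L (adjusted p = 0.0816, limma), of the same sign. Apold1, on the other side of 1190002F15Rik, did not exceed 0.317 in any library.

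Nr1h2, a nuclear receptor gene next to Napsa, was 11.8 to 20.1 FPKM in 2i-14, 6.08 to 11.6 in switched and 9.65 to 17.1 in TSa2i/L libraries. It changed by -0.88 in the switch (adjusted p = 0.0983, limma) and fell in the DMR-deleted pairs (-1.18, adjusted p = 0.0244, limma), where Napsa was higher. Pdcd7, next to Ubap1l, was 4.04 to 5.70 FPKM in 2i-14 and 5.75 and 5.93 in the DMR-deleted lines in 2i/L. It was 6.04 to 7.54 in switched and 4.65 to 8.17 in TSa2i/L libraries, and changed by 0.28 in the switch (adjusted p = 0.434, limma). Kbtbd13, Slurp1 and 2300005B03Rik (Slurp2) did not exceed 0.590 FPKM, and Itpr1 and Arl8b, flanking 0610040F04Rik, changed by 0.14 and -0.03 in the switch (adjusted p = 0.701 and 0.961, limma).

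**Figure D4:**
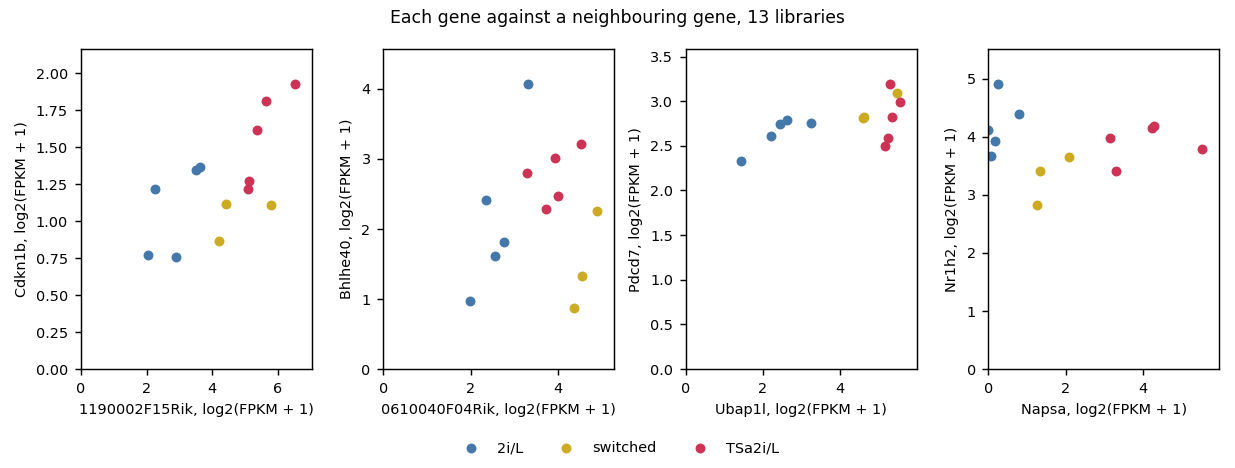
log2(FPKM + 1) of 4 of the genes (horizontal) against a neighbouring gene (vertical) in the 13 libraries, 1 point per library, coloured by medium. Switched libraries lie to the right of the 2i/L libraries for all 4 genes. Cdkn1b, Bhlhe40 and Nr1h2 did not exceed their highest 2i/L library there, whereas Pdcd7 was above all its 2i/L libraries in the switched ones.

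Pearson's r of log2(FPKM + 1) over the 13 libraries was 0.95 between Ubap1l and 1190002F15Rik and 0.94 between Napsa and Lypd2, and 0.51 to 0.83 for the other 8 pairs. Over the 5 TSa2i/L libraries alone these pairs did not stand out, with r of 0.63 for Ubap1l and 1190002F15Rik, 0.74 for Napsa and Lypd2 and 0.74 for Napsa and Ubap1l. These values are descriptions, since the points share lines and media and the selection fixed much of the pattern.

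Among 10730 genes, the profiles most like Napsa were those of Man2b2 (r = 0.96), a lysosomal mannosidase gene, BC055111 (0.95) and Litaf (0.94), which encodes a late endosomal and lysosomal membrane protein. Man2b2 was 0.476 to 0.809 FPKM in 2i-14, 0.586 to 1.64 in switched and 1.80 to 4.29 in TSa2i/L libraries, and also led for Lypd2 (0.95), before Napsa and the chemokine gene Cxcl16 (0.94 each). Ubap1l was closest to Adm2 (0.97), encoding adrenomedullin 2, Slc3a2 (0.96), the heavy chain of several amino acid transporters, and Elovl7 (0.95), a fatty acid elongase. Slc3a2 was 117 to 132 FPKM in 2i-14, 191 to 286 in switched and 237 to 297 in TSa2i/L libraries.

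1190002F15Rik was closest to Dnajc4 (0.96), Ubap1l (0.95) and Nr3c1 (0.94), which encodes the glucocorticoid receptor. Nr3c1 itself stayed low, at 0.412 to 0.536 FPKM in 2i-14 and 0.837 to 1.18 in TSa2i/L. 0610040F04Rik was closest to Tmem205 (0.95), Prss41, a serine protease gene, and Lrrc48 (0.94 each). Tmem205 shared its shape, at 26.7 to 32.8 FPKM in 2i-14, 82.6 to 140 in TSa2i/L and 113 to 147 in switched libraries.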

How the data were processed

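RNA was measured in 13 of the 41 samples of the series, and the methylation and ChIP-seq samples were not analysed here. Cells were lysed in small numbers and amplified with a full-length cDNA kit that does not mark strand. The FPKM values were deposited by the authors, who aligned reads to mm9 with TopHat and computed FPKM with Cufflinks. The submitters' processing notes list TopHat2 2.0.11, Bowtie2 2.2.2 and Cufflinks 2.2.1, and the gene annotation is not given in the sources used here.

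The 24525 rows were summed per symbol, and each of the 5 genes had 1 row. FPKM are not counts, so log2(FPKM + 1) was tested with limma 3.58.1 (trend, R 4.3.3), Benjamini-Hochberg adjusted over all genes that reached 1 FPKM in a number of libraries equal to the smaller group. A fold change on this scale understates the change of low genes. Switch fits had a block on the cell line named in the labels. Correlations of same-line deviations from the group means were 0.17, -0.14 and 0.36. Depth was inferred from the FPKM steps of 3737 genes with transcripts over 1500 bp and rests on those lengths, and 3 fragments on 1 kb correspond to 0.151 to 0.236 FPKM. All comparisons with 2i-14, and the 2 comparisons within TSa2i/L, share libraries.

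Named in full were the 5 genes. Of each list up to 4 genes with the largest change in the switch could be named, and those called in TSa2i/L and Ptprc were added after their values were seen. The nearest listed gene on each side and the 3 genes with the highest correlation were named for each of the 5, except 1 neighbouring gene that is not reported here. The genes and lists were chosen with earlier results of these data known. Alternatives were another pseudocount, filters, median centring, the highest row per symbol, other controls, blocks and leaving out libraries.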

Additional observations from a re-analysis of the deposited data

Results flagged for a closer look

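In the 5 TSa2i/L libraries, 3 of 10 measures (5 genes on 2 scales) held a library far from the others by Dixon's ratio, against a critical value of 0.71. Chance flags about 1 in 20 independent groups, or 0.5 of 10. The 10 measures share genes and libraries and are not independent, so an excess over chance cannot be read from 3 flags. Napsa was flagged on the FPKM scale for TSa2i-14 at passage 47, at 45.3 FPKM (ratio 0.716). 1190002F15Rik was flagged for the same library, at 89.8 FPKM (ratio 0.729). Lypd2 was flagged on the log2 scale for TSa2i-14 at passage 22, which was low at 3.75 FPKM (ratio 0.740).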

How the results depend on the processing

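The number of genes called in TSa2i/L against 2i-14 was 786, against 374 with no filter, 458 with a mean FPKM of at least 5 and 383 to 846 leaving out each library. For the switch it was 672, against 0 with no filter, 369 with a mean of at least 5, 1505 when every 2i-14 passage served as a control and 311 to 1461 leaving out each line (311 without 2i-O48-TKO, 1461 without 2i-O48). For the DMR-deleted lines it was 1031, against 423 with no replicate block and 0 with no filter. Leaving out each library gave 0 to 8 calls for late against early passages and 0 to 9 between the TSa2i/L lines. The mean switch changes of the genes fitted kept their sign in every alternative. With a pseudocount of 0.1 the change of Napsa was 6.15 in TSa2i/L and 3.27 in the switch, above 2.75 for Ubap1l there, and that of Lypd2 5.61 in TSa2i/L and 3.37 in the DMR-deleted pairs, while Ubap1l and 1190002F15Rik ranked 12 and 22 in TSa2i/L. No other tested call in the DMR-deleted pairs than that of 1190002F15Rik changed without the block on line. Signs turned only among late-early and between-line differences that passed no test. Late minus early became -0.0081 for Ubap1l with median centring, -0.14 for 1190002F15Rik without TSa2i-14 at passage 47 (range -0.14 to 0.57 leaving out each library), and for 0610040F04Rik 0.044 with a block on line, 0.60 without TSa2i-C57 at passage 9 and 0.06 without it at passage 58 (range -0.65 to 0.60). TSa2i-C57 minus TSa2i-14 became 0.059 for Napsa (range -1.14 to 0.059) and 0.11 for 1190002F15Rik (-0.59 to 0.11) without TSa2i-14 at passage 47, -0.26 for Lypd2 (-0.26 to 0.70) without TSa2i-14 at passage 22 and -0.007 for 0610040F04Rik (-0.007 to 0.79) without TSa2i-C57 at passage 9. The causes were not tested. The fits with no filter in the DMR-deleted lines, and those with other filters there and in the switch, were chosen after seeing the data. Depth limits Napsa and Lypd2 in 2i/L.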
